A study of Mus musculus with 3 samples.

Results

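Genes of DNA replication and of the E2F pathway were followed in mouse keratinocytes. The 40 genes are a list drawn up by function, in which 16 load and start the replicative helicase at origins, 15 build DNA at the fork, 4 make deoxynucleotides, and 5 are E2F factors or S phase cyclins. All 40 were found by gene symbol among the 41214 gene identifiers of the count tables. Levels are in CPM, meaning counts divided by a scaled library size and put on the usual common scale. Each member reached 1 CPM in 1 library or more, the filter that 11865 genes passed, and each also reached 10 CPM, as 9318 genes did.

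RNA came from 3 exponentially growing cultures of C57BL/6 keratinocytes, the epithelial cells of the epidermis, immortalised with SV40. The labels give 1 library to each genotype: wt, ARPC4 ko and Nrf2-EGFP. The first is wild type, and in the second the gene of ARPC4, a subunit of the actin-branching Arp2/3 complex, was knocked out. The third expresses EGFP-tagged Nrf2, the transcription factor of the antioxidant response. The labels name no treatment, age or clone, and neither the promoter of the Nrf2-EGFP construct nor the way ARPC4 was deleted was stated in the sources used here. The SV40 immortalisation is shared by all 3 libraries, wt included. With 1 library per genotype the spread between cultures was not measured, so no test was possible and p-values are not reported. Parentheses hold exact 95% intervals (Clopper-Pearson) of the counting error alone, which set a library against a library and not a genotype against a genotype.

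Replication is prepared in G1, when the origin recognition complex, Cdc6 and Cdt1 load the Mcm2 to Mcm7 ring on DNA. The ring becomes an active helicase in S phase when Cdc45 and the GINS complex join it. Many of these genes are targets of E2F transcription factors, which the retinoblastoma protein RB holds in check until cyclin-dependent kinases phosphorylate it. Large T antigen of SV40 is known to bind RB and its relatives and so to release E2F. In epidermis, replication is a property of basal cells and stops as cells enter the suprabasal layers. SV40 transcripts were not analysed here.

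Between 22924294 (wt) and 25723959 (Nrf2-EGFP) reads per library were counted to genes. Values given in a run of 3 are those of wt first, ARPC4 ko second and Nrf2-EGFP last. Arpc4 had 94.2, 61.0 and 98.4 CPM, so 1483 counts of the deleted gene were present in the library labelled ARPC4 ko. Nfe2l2, which encodes Nrf2, had 225, 179 and 166 CPM, and was 1.35-fold lower (1.30 to 1.41) in the library labelled Nrf2-EGFP than in wt. Libraries are therefore named by their labels. Basal keratinocyte markers summed to 21816, 12561 and 17113 CPM, although Krt15 was at 2 counts in wt and at 0 in the others. Most of the difference in that sum lay in Krt5 (8997, 4260.3 and 6248 CPM) and Krt14 (7378, 3249 and 4932 CPM). Trp63 (299, 353 and 366 CPM) and Col17a1 (2081, 2123 and 2599 CPM) were lowest in wt, and Itgb4 (980.3, 971 and 1200.1 CPM) was highest in Nrf2-EGFP. Dst (1522, 1175 and 1186 CPM) was highest in wt, and Itga6 (560, 430 and 582 CPM) was lowest in ARPC4 ko. Suprabasal markers summed to 99.2, 21.4 and 27.8 CPM. Most of that sum was Sbsn (67.3, 13.9 and 19.2 CPM), and Lor alone was lowest in wt (0.534, 0.864 and 0.805 CPM). Fibroblast markers summed to at most 2.50 CPM with 6 of 8 at 0 in all libraries, and immune markers to at most 7.12 CPM. The part of the marker differences in the values below was not tested.

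The 40 genes kept nearly the same summed level in all 3 libraries. They summed to 5866 CPM in wt, 5782 CPM in the library labelled ARPC4 ko and 5631 CPM in the library labelled Nrf2-EGFP. The summed ratio to wt was 0.986 (0.978 to 0.993) in ARPC4 ko and 0.960 (0.953 to 0.967) in Nrf2-EGFP. Before scaling between libraries, the wt library gave 0.575% (0.572 to 0.578) of its gene counts to these genes, ARPC4 ko gave 0.610% (0.607 to 0.613), and Nrf2-EGFP 0.544% (0.541 to 0.547). The order of wt and ARPC4 ko thus differed between shares of counts and scaled CPM. In RNA from whole cultures, fewer cells in S phase and less RNA of these genes per cell cannot be told apart.

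A gene was counted as higher or lower where its CPM + 0.5 was at least 25% above, or at most 0.8 of, that in the other library and its counting interval excluded a ratio of 1. In ARPC4 ko against wt, 1 of 40 was higher (E2f3), where 19.1% of all tested genes were, and 3 of 40 were lower (Ccne2, Rrm1 and Rrm2), where 17% of all genes were. In Nrf2-EGFP against wt, 0 of 40 were higher against 16.8% of all genes, and 2 of 40 were lower (Ccne2 and Ccna2) against 14.9%. Between Nrf2-EGFP and ARPC4 ko, 0 of 40 were higher against 10.2%, and 1 of 40 was lower (Ccne2) against 11.5%. At a limit of 2-fold, 0 of 40 were counted in any of the 3 comparisons, where 6.76%, 5.61% and 2.98% of all genes were. Both comparisons with wt use the same wt library, so their values are not independent of each other.

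The members were measured with many counts, from 393 (Gins3 in wt) to 11750 (Rrm1 in wt), so small differences lay outside counting error. Whatever the size, the interval excluded 1 for 15 members higher and 14 lower in ARPC4 ko, beside 31.6% and 34.6% of all genes. The numbers were 10 and 18 in Nrf2-EGFP against wt (32.1% and 30.8% of all genes), and 8 and 16 between Nrf2-EGFP and ARPC4 ko (31.8% and 23.6%). Differences of this size between single cultures have no replicate check.

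Sizes were set beside those of all genes that reached 10 CPM in any library. That set has a floor and was not matched to the members in abundance. The members lay between 17.5 and 522.5 CPM in all libraries, whereas 10 CPM in any library was enough for the set. The values below therefore do not compare genes of like abundance. Of the 40 members, 36 (90%) were inside the limits used above for higher or lower in ARPC4 ko against wt, beside 66.5% of genes that reached 10 CPM in any library. In Nrf2-EGFP 38 (95%) were, beside 70.7%, and between Nrf2-EGFP and ARPC4 ko 39 (97.5%), beside 82.6%. Among those abundant genes 33.5%, 29.3% and 17.3% were counted as higher or lower in the 3 comparisons. The median size of the members' log2 fold was 0.16 in ARPC4 ko against wt (0.22 for the abundant genes), 0.14 in Nrf2-EGFP against wt (0.20), and 0.11 in the third pair (0.15). With direction kept, the median log2 fold was 0.03 for the members and -0.01 for all tested genes in ARPC4 ko, and -0.05 and 0.00 in Nrf2-EGFP.

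**Figure D1:**
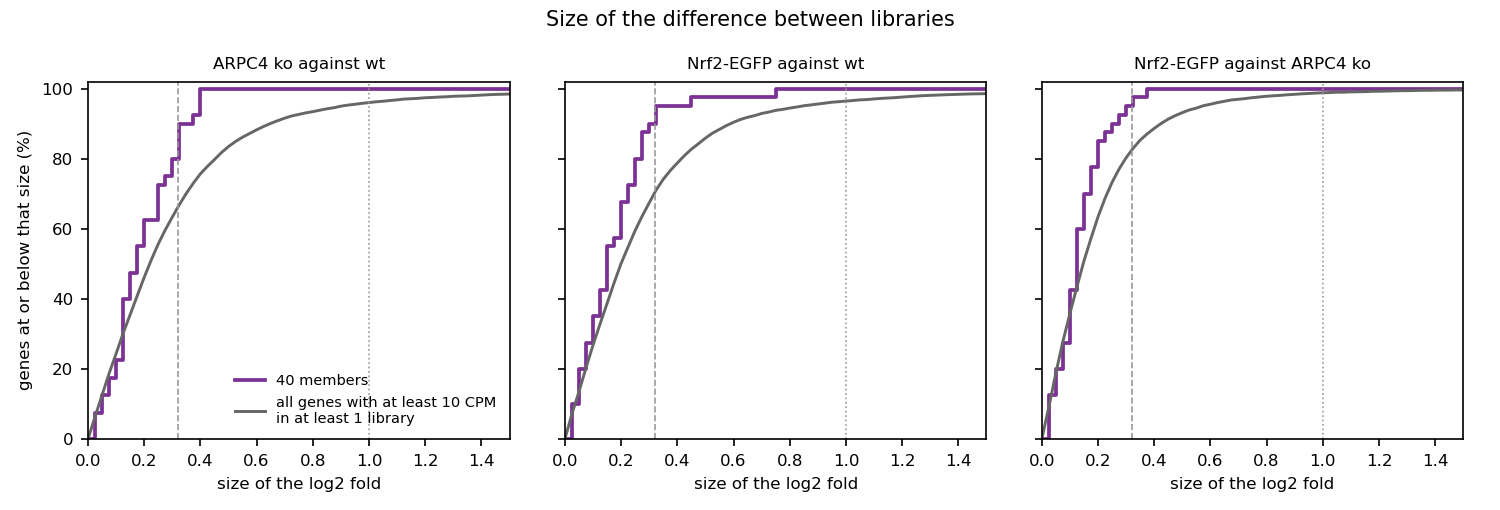
Share of genes (%) whose log2 fold is at or below the size on the x axis, for the 40 members (purple steps) and for all genes that reached 10 CPM in any library (grey line), in each of the 3 pairs of libraries; the dashed line marks a difference of 25% and the dotted line 2-fold. At the dashed line the members reach 90%, 95% and 97.5%, and the grey lines 66.5%, 70.7% and 82.6%.

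The scaling between libraries changed the counts for ARPC4 ko. The values above use TMM factors (0.981 for wt, 1.06 for ARPC4 ko, 0.966 for Nrf2-EGFP), which centre most genes on no difference. Scaled by total gene counts instead, 9 members were higher and 0 lower in ARPC4 ko (Mcm2, Mcm7, Gins3, Rfc1, Rfc3, Pola1, Pole, E2f1 and E2f3 higher). All tested genes shifted in the same way, from 2266 higher and 2016 lower to 3036 and 1299, with the median log2 fold moving from -0.01 to 0.09. Relative to all genes, the members' median differed by 0.04 under TMM and by 0.05 under total counts. Under total counts the direction of Mcm3, Cdc6, Cdc45, Rfc4 and Orc6 turned in ARPC4 ko, and that of Rfc5 in Nrf2-EGFP. Rfc2 turned in Nrf2-EGFP with DESeq2 size factors.

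The promoters of the members shared E2F letters more often than promoters at large. RefSeq windows of 250 bases before to 50 bases after the start (GRCm38.p6) were matched for 32 of the 40 genes, with 37 windows. The E2F letters searched on both strands were TTTCCCGC, TTTCGCGC, TTTGCCGC and TTTGGCGC. They stood in the windows of 13 of 32 members (40.6%) and of 2.60% of all 27025 genes with windows. Those 27025 include genes that did not pass the filter, which all members passed. Of the 9264 tested genes with a window, 462 held the E2F letters. For the other motifs the number among tested genes was not taken. CCAAT, the core letters of NF-Y sites, stood in 65.6% of members and 41.1% of all genes, and GGGCGG, the core of SP sites, in 75% and 38.2%. TTTGAA, the core of the cell cycle homology region that DREAM and mitotic genes use, stood in 15.6% of members and 20.2% of all genes. None of these motifs contains another, though matches can overlap in part. The list was drawn up from replication and E2F genes, and a match of letters describes a window and is not a measured binding site.

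The 4 stretches below were picked from 9 with matches before the annotated start, because they belong to members on either side of wt in ARPC4 ko. E2f3 and Pola1 had ratios of 1.28 and 1.24 in ARPC4 ko against wt, and Mcm5 and Mcm6 had 0.905 and 0.917. Under total counts the ratios were 1.38 and 1.33, and 0.974 and 0.987. Each stretch is on the strand of its gene, 5′ to 3′, with the E2F letters of either strand in capitals. The stretches lie at chr13:29986064-29986099 (minus strand, E2f3), chrX:93632261-93632318 (minus strand, Pola1), chr8:75109331-75109392 (plus strand, Mcm5) and chr1:128359720-128359840 (minus strand, Mcm6).
E2f3: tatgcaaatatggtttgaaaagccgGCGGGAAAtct
Pola1: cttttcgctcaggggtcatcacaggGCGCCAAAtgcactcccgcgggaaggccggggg
Mcm5: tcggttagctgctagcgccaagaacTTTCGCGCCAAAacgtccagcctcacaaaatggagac
Mcm6: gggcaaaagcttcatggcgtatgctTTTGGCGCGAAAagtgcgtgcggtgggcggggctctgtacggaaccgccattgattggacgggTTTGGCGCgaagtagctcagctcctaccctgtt

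Mcm5 and Mcm6 each held 2 matches that overlap on opposite strands, and Mcm6 held a further match 47 bases before the start. In E2f3 the match stood 11 bases before the start, and in Pola1 138 bases before it. The 13 members with the letters had a median log2 fold of -0.02 in ARPC4 ko and -0.06 in Nrf2-EGFP, and the 19 with a window and no letters had 0.02 and -0.05. Across all 462 tested genes whose windows held the letters, the median log2 fold was -0.01 in ARPC4 ko and 0.00 in Nrf2-EGFP. Of these 462, 14.5% were higher and 10.8% lower in ARPC4 ko, beside 19.4% and 16.8% of the 8802 tested genes whose windows lacked them. In Nrf2-EGFP 13.4% were higher and 10.6% lower, beside 16.7% and 14.8%.

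**Figure D2:**
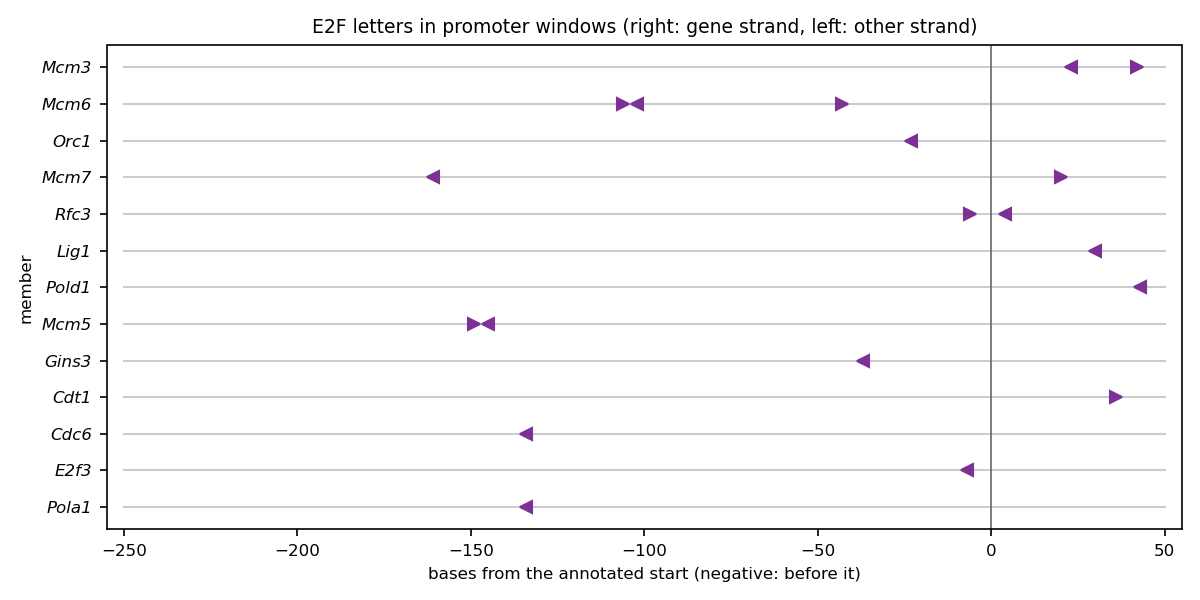
Position of the E2F letters in the promoter windows of the 13 members that hold them, in bases from the annotated start on the x axis (negative before it); triangles pointing right mark the strand of the gene and those pointing left the other strand. Matches lie from 165 bases before the start (Mcm7) to 39 bases after it (Pold1).

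Origin licensing and helicase genes were close to wt in both other libraries. Of these 16 genes, 0 were counted as higher or lower in either comparison with wt, beside the shares of all genes given above, and their summed ratio was 1.022 (1.010 to 1.034) in ARPC4 ko and 0.978 (0.966 to 0.990) in Nrf2-EGFP. Mcm4, a subunit of the helicase ring, had 349.8, 359.7 and 355 CPM, the narrowest range of the 40 genes at 1.03-fold from lowest to highest. Mcm2, a ring subunit that also binds histones, had 229, 273 and 223 CPM, and its ARPC4 ko value stood above the other two at 1.19-fold wt (1.15 to 1.23). Mcm7 had 319.7, 376 and 381 CPM, with wt the lowest and the other two close together. Mcm7 was 1.18-fold (1.14 to 1.21) and 1.19-fold (1.16 to 1.23) above wt, with the reservation that 12.6% of its 65-base windows also occur in other genes, among them Gm5487. Mcm3, Mcm5 and Mcm6 had their highest values in wt, which for Mcm3 did not hold against ARPC4 ko under total count scaling. Mcm3 had 287, 277 and 249 CPM, Mcm5 had 301, 273 and 289 CPM, and Mcm6 had 345, 316 and 294 CPM. The ring subunits therefore did not share an order of the libraries.

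The loading factors differed little. Orc1, the subunit of the origin recognition complex that varies over the cell cycle, had 36.3, 33.4 and 30.6 CPM, and was 1.19-fold lower (1.07 to 1.31) in Nrf2-EGFP than in wt. Orc6, another subunit, had 78.6, 78.1 and 84.4 CPM. Cdc6, the ATPase that recruits the ring, had 77.2, 76.3 and 70.1 CPM, and Cdt1, its partner that is destroyed once S phase begins, had 77.2, 82.4 and 80.4 CPM. Mcm10, which helps the helicase fire, had 74.5, 80.3 and 74.2 CPM. Cdc45, which rides with the ring at the fork, had 67.5, 64.1 and 61.1 CPM.

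The 4 GINS genes encode a tetramer whose subunits stand 1 to 1 in the protein complex. Gins1 had 30.7, 27.1 and 27.0 CPM, and wt was the highest. Gins2 had 26.8, 29.8 and 27.7 CPM, and Gins4 had 49.6, 51.2 and 48.4 CPM, both with intervals that included a ratio of 1 to wt in both libraries. Gins3 had 17.5, 21.9 and 19.2 CPM and was 1.255-fold (1.099 to 1.433) above wt in ARPC4 ko, which after addition of 0.5 CPM fell just short of the limit. Per kilobase of merged exons, Gins4 stood at 36.8, 38.0 and 35.9 CPM and Gins1 at 20.3, 17.9 and 17.8, while Gins2 and Gins3 lay between 6.45 and 8.09. Gins4 above Gins1 above the other two held in each library with either measure of length. Gins2 shares 2758 exon bases with Gse1 on the opposite strand, and the part of this overlap in its level was not tested. The order within the Mcm ring changed with the measure of length. In wt Mcm4 was the highest subunit per kilobase of merged exons and Mcm6 per kilobase of principal transcript, with highest to lowest ratios of 2.96 and 1.74.

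**Figure D3:**
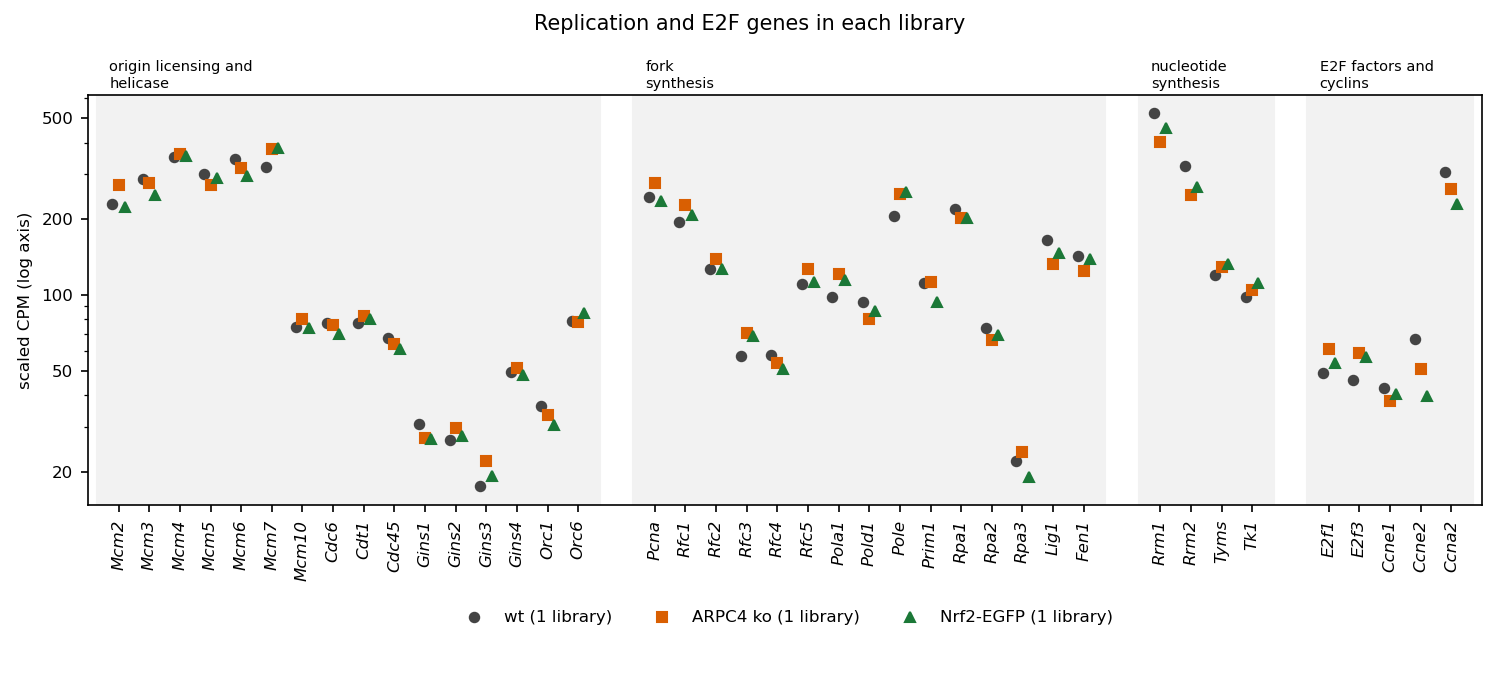
Scaled CPM (log axis) of the 40 genes in the 3 libraries, by role; each point is 1 library and there are no error bars because there is 1 library per genotype. Levels run from 17.5 CPM (Gins3 in wt) to 522.5 CPM (Rrm1 in wt), and for most genes the 3 points lie close together, with Ccne2 the widest apart.

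Fork synthesis genes were also inside the limits, 15 of 15 in each comparison with wt, and their summed ratio was 1.046 (1.032 to 1.059) in ARPC4 ko and 1.004 (0.991 to 1.017) in Nrf2-EGFP. Within them, the catalytic subunits of the 3 replicative polymerases did not move alike. Pole, the leading strand polymerase, had 205, 251 and 254 CPM, 1.22-fold (1.18 to 1.27) and 1.24-fold (1.195 to 1.290) above wt. Pola1, which extends the primer, had 98.1, 121 and 115 CPM, 1.24-fold (1.17 to 1.31) and 1.17-fold (1.11 to 1.24) above wt. Pold1, the lagging strand polymerase, had 93.8, 80.0 and 86.4 CPM, with wt the highest, and was 1.17-fold lower (1.103 to 1.249) in ARPC4 ko and 1.09-fold lower (1.02 to 1.15) in Nrf2-EGFP. These directions were the same under TMM, total count and DESeq2 scaling. Prim1, the primase that works with Pola1, had 111, 113 and 93.6 CPM and was low in Nrf2-EGFP, at 1.19-fold below wt (1.12 to 1.26).

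The genes that finish the lagging strand were lowest in ARPC4 ko. Lig1, the ligase that seals Okazaki fragments, had 165, 133 and 146 CPM and was 1.24-fold lower (1.18 to 1.30) in ARPC4 ko than in wt, close to the limit. Fen1, the nuclease that trims the flaps, had 142, 124 and 139 CPM and was 1.14-fold lower (1.09 to 1.20). Each shares exon sequence with genes on the opposite strand, Fen1 over 2039 bases (Tmem258 and Gm10143) and Lig1 over 247 bases (Zswim9).

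Pcna, the sliding clamp, had 245, 276 and 236 CPM and was highest in ARPC4 ko, 1.13-fold (1.09 to 1.17) above wt, although 15.9% of its windows recur in a pseudogene (Pcna-ps2). Of the clamp loader subunits, Rfc1 had 194, 227 and 207 CPM, Rfc2 had 127, 139 and 126 CPM, and Rfc5 had 111, 127 and 113 CPM, each with ARPC4 ko highest. Rfc3 had 57.5, 70.5 and 68.6 CPM, 1.23-fold (1.14 to 1.32) and 1.19-fold (1.11 to 1.28) above wt. Rfc4 had 57.7, 53.8 and 51.0 CPM, with wt highest except against ARPC4 ko under total counts. In Nrf2-EGFP Rfc3 thus stood above wt and Rfc4 below it. The single strand binding protein RPA was inside the limits in all subunits. Rpa1 had 218, 201 and 202 CPM, Rpa2 had 73.9, 66.6 and 69.5 CPM, and Rpa3 had 22.1, 23.9 and 19.1 CPM. Per kilobase of merged exons or of principal transcript, Rpa1 stood above Rpa2 and Rpa2 above Rpa3 in each library.

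**Figure D4:**
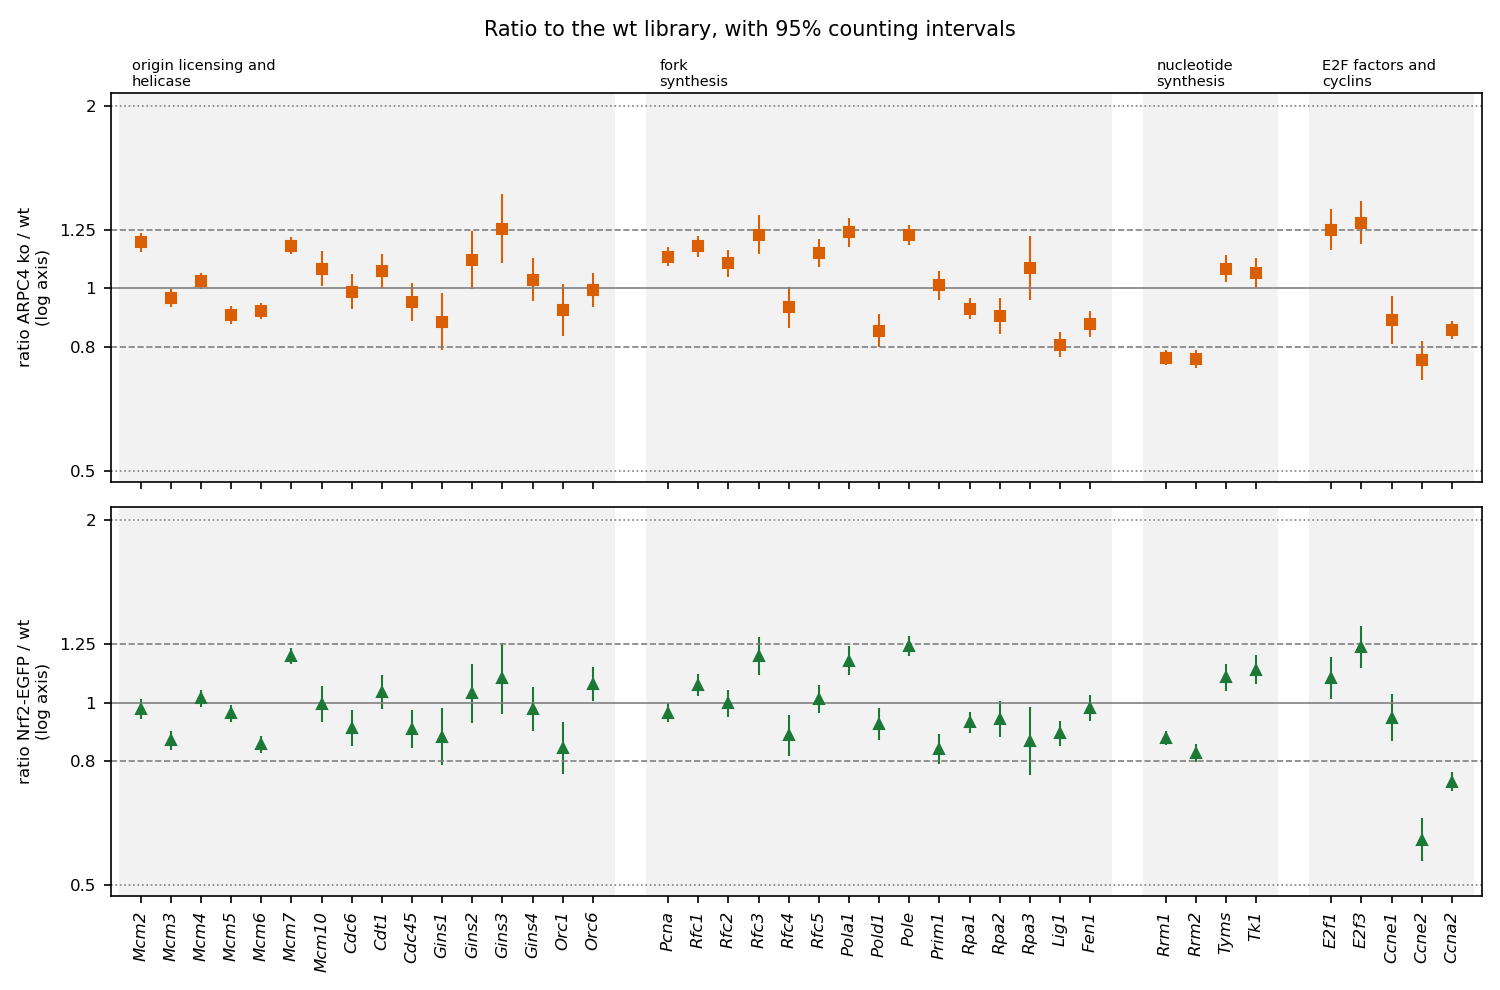
Ratio of scaled CPM to the wt library (log axis) for each of the 40 genes in ARPC4 ko (top, squares) and Nrf2-EGFP (bottom, triangles), with bars for the exact 95% counting interval; dashed lines mark the limits of 25% above and 0.8 of wt, and dotted lines 2-fold in either direction. Ccne2 at 0.595 and Ccna2 at 0.741 in Nrf2-EGFP lie farthest from 1, and no gene reaches 2-fold.

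Ribonucleotide reductase was lower than wt in the library labelled ARPC4 ko, while the thymidylate genes were not. Rrm1, the large catalytic subunit of the enzyme that makes deoxynucleotides (ENSMUSG00000030978, chr7:102441695-102469771 in mm10), had 522.5, 402 and 457 CPM. Rrm2, the small subunit whose level peaks in S phase (ENSMUSG00000020649, chr12:24708241-24714146), had 324.5, 248 and 268 CPM. For both subunits wt was highest, ARPC4 ko lowest and Nrf2-EGFP between, although total count scaling turned the order of the last pair for Rrm2 (ratio of Nrf2-EGFP to ARPC4 ko 0.987). Rrm1 was 1.30-fold lower (1.27 to 1.34) in ARPC4 ko than in wt and 1.14-fold lower (1.11 to 1.17) in Nrf2-EGFP. Rrm2 was 1.31-fold lower (1.26 to 1.35) and 1.21-fold lower (1.171 to 1.252). Scaled by total counts, the ARPC4 ko to wt ratios were 0.828 for Rrm1 and 0.823 for Rrm2, in the same direction but short of the limit. Tyms, thymidylate synthase, had 120.1, 129 and 132 CPM, and Tk1, the salvage thymidine kinase, had 98.5, 104 and 112 CPM. Both were lowest in wt, at 1.102-fold (1.047 to 1.160) and 1.13-fold (1.07 to 1.20) above it in Nrf2-EGFP. The 4 genes together summed to 0.830 (0.814 to 0.845) of wt in ARPC4 ko and 0.910 (0.894 to 0.926) in Nrf2-EGFP.

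The S phase cyclins held the widest differences. Ccne2, cyclin E2, which drives Cdk2 at S phase entry (ENSMUSG00000028212, chr4:11191351-11204779), had 67.1, 51.0 and 39.9 CPM. The 3 values were well apart, with 1509, 1241 and 992 counts. Ccne2 was 1.31-fold lower (1.22 to 1.42) in ARPC4 ko than in wt, 1.68-fold lower (1.55 to 1.82) in Nrf2-EGFP than in wt, and 1.28-fold lower (1.18 to 1.39) in Nrf2-EGFP than in ARPC4 ko. By total counts the ratio to wt was 0.818 in ARPC4 ko and 0.586 in Nrf2-EGFP. Ccne1, cyclin E1, had 42.9, 38.0 and 40.5 CPM, with an interval that included 1 in Nrf2-EGFP (ratio 0.944, 0.864 to 1.03), so the wide difference was in 1 of the 2 cyclin E genes.

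Ccna2, cyclin A2, which acts through S phase and into mitosis (ENSMUSG00000027715, chr3:36564865-36572150), had 307.5, 262 and 228 CPM in the same order. Ccna2 was 1.17-fold lower (1.13 to 1.21) in ARPC4 ko and 1.35-fold lower (1.302 to 1.397) in Nrf2-EGFP than in wt. Exons of both cyclins overlap a neighbour on the opposite strand, Ccne2 over 609 bases of Ints8 and Ccna2 over 510 bases of Exosc9. The sources used here do not give the strand setting of the counting. Ints8 had 91.2, 79.5 and 77.4 CPM, with ratios to wt of 0.872 (0.819 to 0.928) and 0.848 (0.797 to 0.903). Exosc9 had 62.6, 50.6 and 50.4 CPM, with ratios of 0.809 (0.749 to 0.874) and 0.805 (0.745 to 0.869). The neighbours were thus lower than wt as well, with ratios that differed little between the 2 libraries, and their part in the cyclin values was not tested.

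E2f1 and E2f3, the activators of the E2F family among the members, stood above wt, which E2f2, an activator outside the list given below, did not. E2f1, an activator that is itself an E2F target (ENSMUSG00000027490, chr2:154559407-154569892), had 48.9, 61.1 and 53.7 CPM, 1.2496-fold (1.155 to 1.352) above wt in ARPC4 ko, just short of the limit, and 1.098-fold (1.013 to 1.191) in Nrf2-EGFP. E2f3 (ENSMUSG00000016477, chr13:29906575-29986063), had 46.1, 59.1 and 57.0 CPM. It was 1.28-fold (1.18 to 1.39) above wt in ARPC4 ko and 1.24-fold (1.14 to 1.34) in Nrf2-EGFP. For both genes wt was the lowest library, which also held under total count and DESeq2 scaling.

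Between the libraries labelled Nrf2-EGFP and ARPC4 ko, the members' median log2 fold was -0.07 (0.02 for all genes). Besides Ccne2, the members farthest apart were Rpa3 at 1.251-fold (1.106 to 1.415), Mcm2 at 1.22-fold (1.18 to 1.27) and Prim1 at 1.20-fold (1.14 to 1.27), all lower in Nrf2-EGFP. Rrm1 was 1.14-fold (1.11 to 1.17) and Fen1 1.12-fold (1.07 to 1.18) higher in Nrf2-EGFP. By total counts 6 members were lower by the same limit and the median was -0.20, with that of all genes at -0.11. The direction of 11 members turned between the scalings in this comparison: Mcm5, Mcm7, Pold1, Pole, Rpa1, Rpa2, Orc6, Ccne1, Rrm2, Tyms and Tk1.

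With TMM scaling, wt was highest for 18 of the 40 genes, ARPC4 ko for 17 and Nrf2-EGFP for 5. The lowest was wt for 14, ARPC4 ko for 10 and Nrf2-EGFP for 16. From lowest to highest library the range was 1.16-fold at the median of the 40 genes and 1.68-fold at most (Ccne2).

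The regulators upstream of E2F were examined with a list of 15 genes, made up of D cyclins, Cdks, Cdk inhibitors, Cdc25a and Skp2. In ARPC4 ko 3 were higher (Cdkn2d, Ccnd3 and Ccnd1) and 0 lower by the same limit, beside 19.1% and 17% of all genes. In Nrf2-EGFP 3 were higher (Ccnd1, Ccnd3 and Cdk6) and 2 lower (Cdkn1a and Cdkn2c), beside 16.8% and 14.9%. Their median log2 fold was 0.02 in both comparisons. Ccnd1, cyclin D1, which with Cdk4 or Cdk6 starts the phosphorylation of RB, had 337, 435 and 495 CPM, 1.29-fold (1.251 to 1.327) and 1.47-fold (1.43 to 1.51) above wt. Ccnd3, cyclin D3, had 65.5, 90.05 and 85.5 CPM, 1.37-fold (1.29 to 1.47) and 1.305-fold (1.220 to 1.396) above wt. Cdkn1a, the p53 target p21 that inhibits Cdk2, had 76.7, 72.9 and 55.4 CPM and was 1.39-fold lower (1.29 to 1.49) in Nrf2-EGFP. Cdkn2c, an inhibitor of Cdk4 and Cdk6, had 24.1, 24.4 and 18.0 CPM, 1.34-fold lower (1.18 to 1.52) in Nrf2-EGFP, and its relative Cdkn2d had 10.5, 15.0 and 12.1 CPM, 1.43-fold (1.21 to 1.69) above wt in ARPC4 ko. Total count scaling raised the number higher in ARPC4 ko to 4.

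Of 16 RB, E2F and DREAM partners, 1 was higher and 3 were lower in ARPC4 ko (19.1% and 17% of all genes), and 0 were higher and 4 lower in Nrf2-EGFP (16.8% and 14.9%). Their median log2 folds were -0.15 and -0.06. DREAM is the complex that represses cell cycle genes in resting cells. Tfdp2, a partner with which E2F proteins bind DNA, had 23.3, 38.2 and 28.1 CPM and was 1.64-fold (1.47 to 1.83) above wt in ARPC4 ko. Its abundant relative Tfdp1 had 249.7, 227 and 242 CPM. Lin37, a DREAM subunit, had 12.7, 9.42 and 9.18 CPM, 1.345-fold (1.127 to 1.608) and 1.38-fold (1.16 to 1.65) lower than wt. Lin52, another DREAM subunit, had 11.2, 9.83 and 8.01 CPM, 1.39-fold lower (1.15 to 1.69) in Nrf2-EGFP. Of the other E2F genes, E2f2, an activator, had 10.7, 7.73 and 10.1 CPM, 1.39-fold lower (1.14 to 1.69) in ARPC4 ko, and E2f6, a repressor, had 23.1, 21.6 and 17.7 CPM, 1.31-fold lower (1.15 to 1.49) in Nrf2-EGFP. Rb1, the gene of RB itself, had 23.8, 22.7 and 22.6 CPM, with intervals that included 1 in both. Under total counts 1 partner was higher and 1 lower in ARPC4 ko.

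A list of 46 further replication genes gave 2 higher and 6 lower in ARPC4 ko, beside 19.1% and 17% of all genes, and 0 higher and 5 lower in Nrf2-EGFP, beside 16.8% and 14.9%. Under total counts the numbers were 9 and 2 in ARPC4 ko and 0 and 7 in Nrf2-EGFP. With TMM scaling the median log2 fold was -0.07 in both. Under total counts it was 0.04 in ARPC4 ko and -0.09 in Nrf2-EGFP. Recql4, a helicase that helps origins fire, had 41.7, 26.7 and 27.3 CPM, 1.56-fold (1.41 to 1.73) and 1.53-fold (1.38 to 1.69) lower than wt. Slbp, which binds the stem loop of histone messages, had 127, 173 and 128 CPM, 1.358-fold (1.295 to 1.425) above wt in ARPC4 ko and at a ratio of 1.011 in Nrf2-EGFP. Pole2, the partner subunit of Pole, had 44.2, 40.4 and 30.6 CPM, 1.445-fold lower (1.314 to 1.590) in Nrf2-EGFP, on the other side of wt from Pole. Dna2, a nuclease for long flaps, had 47.5, 36.2 and 36.3 CPM, 1.31-fold lower in both (1.20 to 1.43). Orc3, a subunit of the origin recognition complex, had 65.4, 48.3 and 50.3 CPM, 1.35-fold (1.254 to 1.464) and 1.30-fold (1.204 to 1.402) lower.

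The genes of the later cell cycle phases were mostly lower than wt by small amounts. Of 30 G2 and mitosis genes, 26 had a log2 fold below 0 in ARPC4 ko and 23 in Nrf2-EGFP, with medians of -0.17 and -0.13, where 6112 and 5870 of all 11865 tested genes were below 0. By the same limit 1 was higher and 6 lower in ARPC4 ko (1 and 4 under total counts), beside 19.1% and 17% of all genes. In Nrf2-EGFP 1 was higher and 4 lower, beside 16.8% and 14.9%. The direction of Ccnb2, Bub1, Top2a, Cenpa, Nuf2 and Espl1 in ARPC4 ko, and of Aurkb and Ube2c in Nrf2-EGFP, turned with the scaling. Cdca8, a subunit of the chromosomal passenger complex, had 152, 101.6 and 113 CPM, 1.49-fold (1.42 to 1.57) and 1.34-fold (1.28 to 1.41) lower. Plk1, the mitotic polo kinase, had 177, 121 and 145 CPM, 1.46-fold lower (1.396 to 1.536) in ARPC4 ko, and Cenpe, a kinetochore motor, had 219, 158 and 168 CPM, 1.385-fold lower (1.328 to 1.445) there. Cdc20, which activates the anaphase-promoting complex, had 160.1, 121 and 121 CPM, 1.33-fold lower (1.26 to 1.39) in Nrf2-EGFP. A log2 fold above 0 was found for 4 of the 30 in ARPC4 ko and 7 in Nrf2-EGFP. Foxm1, the factor that switches on G2 genes, was the 1 counted as higher in each comparison, at 131, 176 and 172 CPM. Its level was 1.34-fold (1.278 to 1.405) and 1.31-fold (1.252 to 1.375) above wt.

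Of 15 replication checkpoint genes, 0 were higher and 3 lower in ARPC4 ko (19.1% and 17% of all genes), and 1 was higher and 1 lower in Nrf2-EGFP (16.8% and 14.9%). Their median log2 folds were -0.02 and -0.04. Blm, a helicase that restarts stalled forks, had 77.5, 53.4 and 63.7 CPM, 1.45-fold lower (1.35 to 1.56) in ARPC4 ko. Rad1, a subunit of the checkpoint clamp, had 27.5, 19.6 and 21.2 CPM, 1.403-fold (1.243 to 1.584) and 1.30-fold (1.15 to 1.46) lower. Wee1, the kinase that holds back Cdk1, had 27.8, 20.4 and 24.1 CPM, 1.36-fold lower (1.21 to 1.53) in ARPC4 ko. Brca2, which protects stalled forks, had 78.1, 83.7 and 103.9 CPM, 1.33-fold (1.251 to 1.414) above wt in Nrf2-EGFP.

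**Figure D5:**
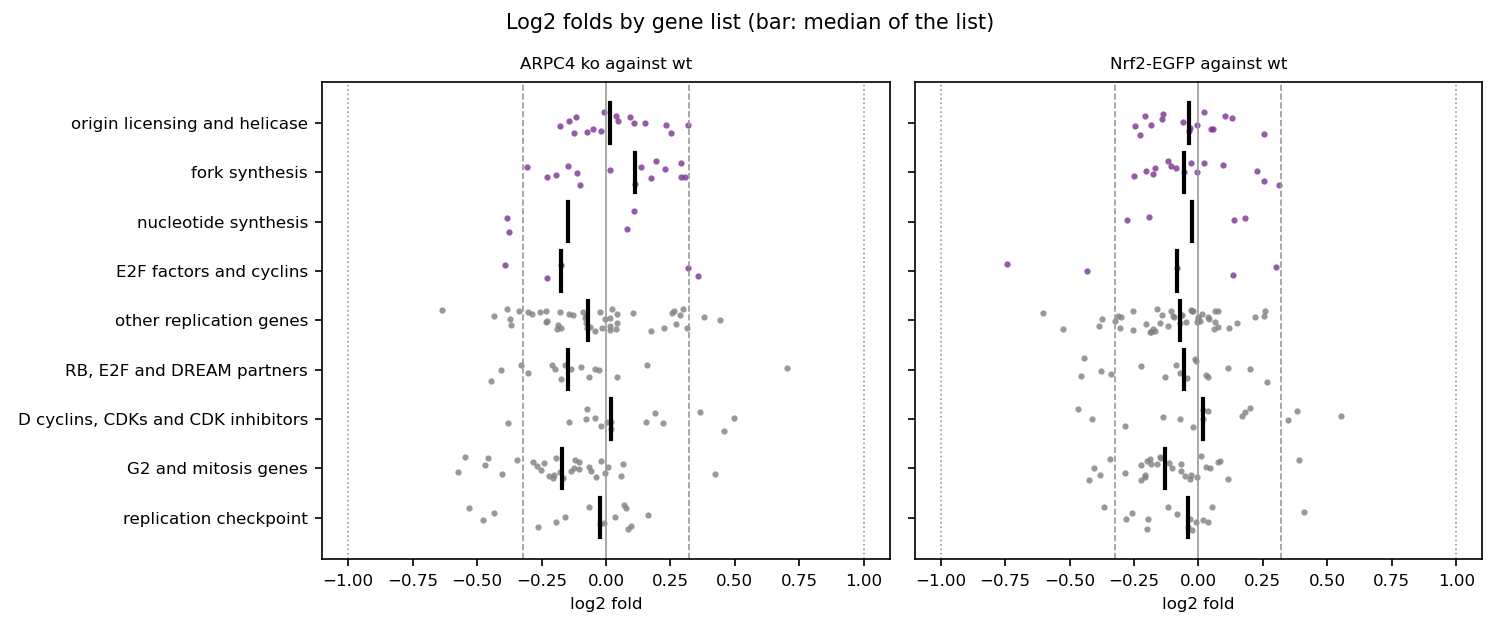
Log2 fold against wt (x axis) of each gene in ARPC4 ko (left) and Nrf2-EGFP (right), with members by role in purple and the other lists in grey; each point is a gene, the black bar is the median of its list, dashed lines mark the limits of 25% above and 0.8 of wt, and dotted lines 2-fold. Points of all lists lie inside the 2-fold lines, and the G2 and mitosis genes have the lowest median in Nrf2-EGFP, at -0.13.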

How the data were processed

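RNA was measured in 3 libraries, 1 per genotype. Per the labels, total RNA was extracted with TRIzol and stranded libraries were sequenced as 65 bp single reads. The authors deposited 1 table of raw read counts per Ensembl gene for each library, made with TopHat2 2.1.0, Bowtie 1.1 and HTSeq on mm10, per the submitters' processing notes. Neither the strand setting nor the annotation release was given in the sources used here. Entries that name no gene (9.08%, 8.22% and 8.48% in wt, ARPC4 ko and Nrf2-EGFP) were left out.

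Symbols and positions came from GENCODE M21 on GRCm38, for 40254 of 41214 identifiers. Counts were divided by library sizes scaled with TMM (edgeR 4.0.16, R 4.3.3). Genes below 1 CPM in every library were dropped. Log2 folds are of CPM + 0.5, which understates the differences of low genes, and ratios and folds in the text have no pseudocount. DESeq2 1.42.0 gave size factors only. With 1 library per group no count model was fitted. A gene was called at 25% above (or 0.8 of) the other library, or at 2-fold, where the exact 95% interval of the ratio also excluded 1, because no spread could be estimated. Intervals cover counting error only. PCR copies of a molecule could not be told from separate molecules, so the intervals may be too narrow even for that error. The counting intervals and the call rules were tested on simulated counts with counting error alone and the scaling factors held fixed. The scaling, the spread between cultures and the other steps were not tested in that way.

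The members, the other lists and the alternatives were chosen with earlier results of these data known. All members were named, and of each other list the 3 genes with the largest log2 fold in size among those with at least 10 CPM, per comparison with wt. Tfdp1, Rb1, Cdk6 and the genes listed where scaling turned a direction were added after their values were seen. Alternatives were total count scaling, DESeq2 size factors, no filter, a filter of 10 CPM and a pseudocount of 2 CPM. Chosen after seeing the data were a list without overlapping members and lengths of principal transcripts.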

Additional observations from a re-analysis of the deposited data

How the results depend on the processing

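The median log2 fold of the members and the numbers counted as higher or lower were recomputed for the 3 comparisons, and 59 of 66 values stayed within the limits set for a change. Scaling by total gene counts moved 5 of its 12 values. In ARPC4 ko against wt the median became 0.13, with 9 members higher and 0 lower by the 25% limit, and in Nrf2-EGFP against ARPC4 ko the median became -0.20, with 6 lower. With DESeq2 size factors 3 members (E2f1, E2f3 and Gins3) were higher in ARPC4 ko. Among the 23 members that share no exon bases with another gene and at most 5% of their 65-base windows, 0 were lower in Nrf2-EGFP, because Ccne2 and Ccna2 are among the 17 left out. That alternative was chosen after seeing the data. The filter and pseudocount alternatives moved none of these values. The filters could not move them, because all 40 members reached 10 CPM, so the 12 values under each filter are no check. A change of pseudocount has little room to act at these levels. Levels per kilobase changed with the length used. The orders given for the GINS and RPA genes held with both lengths, and that of the Mcm ring did not. No paired analysis was possible because each genotype has 1 library. Counting error was small for these genes, so the missing replicates and the choice of scaling, not depth, limit the comparisons.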
